A study of Mus musculus with 4 samples.

Results

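The genes described here encode the subunits of potassium, sodium and calcium channels. They were taken by name: a symbol of the form Kcn plus letters and a number, Scn plus a number and a letter, or Cacn plus any suffix, with 1 matching symbol left out. This gave 131 of the 54348 gene rows in the table, of which 91 were potassium, 14 sodium and 26 calcium channel genes. The name voltage-gated fits only some of them, because the symbols also cover inward rectifiers (Kcnj), tandem pore leak channels (Kcnk), calcium-activated channels (Kcnn, Kcnma1), auxiliary subunits, and Cacng4 and Cacng8, which are best known as partners of AMPA-type glutamate receptors. The study measured RNA in live, tdTomato-positive cells sorted from the forebrain of mice on postnatal day 4. The control group was PdgfraCreER;AI14 (2 libraries) and the fusion group was PdgfraCreER;MN1:BEND2;AI14 (2 libraries). Both groups thus carried the tamoxifen-activated Cre driven by Pdgfra and the AI14 tdTomato reporter, and both received tamoxifen on postnatal days 0 and 1; only the fusion group also carried MN1:BEND2, a gene fusion found in human astroblastoma. Pdgfra is active in oligodendrocyte precursors and also in fibroblasts, so the sort could hold more than 1 cell type. The labels do not state if replicate libraries are from different animals; a p-value here covers the variation from library to library, and that variation may be technical.

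Voltage-gated channels open when the membrane is depolarised: sodium channels start the action potential, calcium channels turn it into calcium entry, and voltage-gated potassium (Kv) channels end it. Each channel is a pore-forming protein, or a set of them, that works with auxiliary subunits which set its gating and its number at the cell surface. Inward rectifier and tandem pore potassium channels hold the resting potential and clear extracellular potassium, a task of glia. Oligodendrocyte precursors receive synapses from neurons and carry sodium, calcium and A-type (rapidly inactivating) potassium currents, most of which are reduced as the cells mature.

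Values are TPM (transcript abundance scaled to a fixed library total), a unit that accounts for transcript length, so levels of different genes can be set side by side. Libraries are always given in the order control replicates 1 and 2, then fusion replicates 1 and 2. Sequencing depth is unknown, and a value of 0 means only that the gene is listed at 0. Pdgfra itself was at 337, 429, 123 and 192 TPM, and Bend2, part of the fusion, was at 0, 0, 3.82 and 8.72 TPM. The mitochondrially encoded genes took 10.1%, 7.30%, 48.7% and 26.2% of all TPM, and 12772, 13219, 9050 and 10017 genes reached 1 TPM. The genes tested had a median log2 change of -1.41 between fusion and control, so a lower TPM in the fusion libraries was the usual case, and each change below is best read against that value. Y-linked genes and Tsix also parted the groups, so sex and genotype cannot be told apart.

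The channel genes summed to 442 and 569 TPM in the control libraries and to 104 and 159 TPM in the fusion libraries. In the same order, 45, 50, 21 and 31 of the 131 genes reached 1 TPM. A gene was tested if it reached 1 TPM in at least 2 of the 4 libraries, which 45 channel genes did (27 potassium, 6 sodium and 12 calcium). Of these, 12 passed through the control libraries alone and 0 through the fusion libraries alone, so the filter favoured genes that were higher in controls. The other 86 genes were not tested; 26 of them were listed at 0 in all 4 libraries, and 14 reached 1 TPM in 1 library, with a highest value of 3.80 TPM (Cacng3 in fusion replicate 2).

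At a limma adjusted p under 0.05, 24 of the 45 tested channel genes were lower in the fusion libraries (53.3%), 1 was higher (2.22%) and 20 did not pass. Of all 12871 tested genes, 51.3% were lower and 4.95% higher, so the share of channel genes called lower lay close to that of the whole table. Their median log2 change was -1.46 against -1.41 for all genes. Both fusion libraries lay below both control libraries for 34 channel genes (75.6%, against 71.1% of all tested genes) and above them for 1 (2.22%, against 10.2%). Fewer labelled cells of a type and less RNA per cell cannot be told apart in such bulk libraries. The plots of levels and of changes by class show that the 2 genes farthest from the rest were an auxiliary subunit of Kv4 channels, Kcnip3, and a tandem pore channel, Kcnk4.

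**Figure D1:**
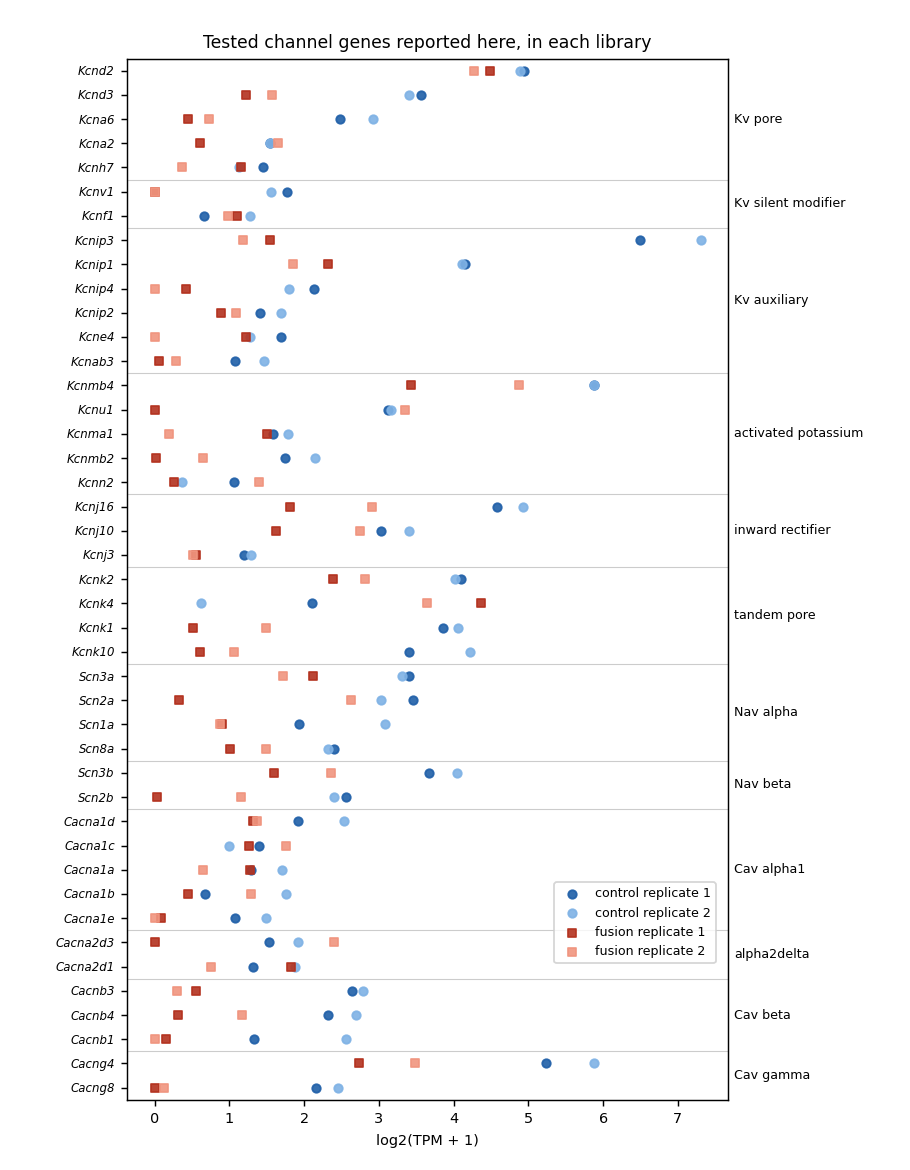
Level of each tested channel gene reported here in each library, as log2(TPM + 1) on the x axis; circles are control and squares fusion libraries, and genes are grouped by class. Kcnip3 falls from 88.7 and 157 TPM in controls to 1.92 and 1.26 TPM in fusion libraries, while Kcnk4 is the gene whose 2 fusion points both lie to the right of its control points.

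**Figure D2:**
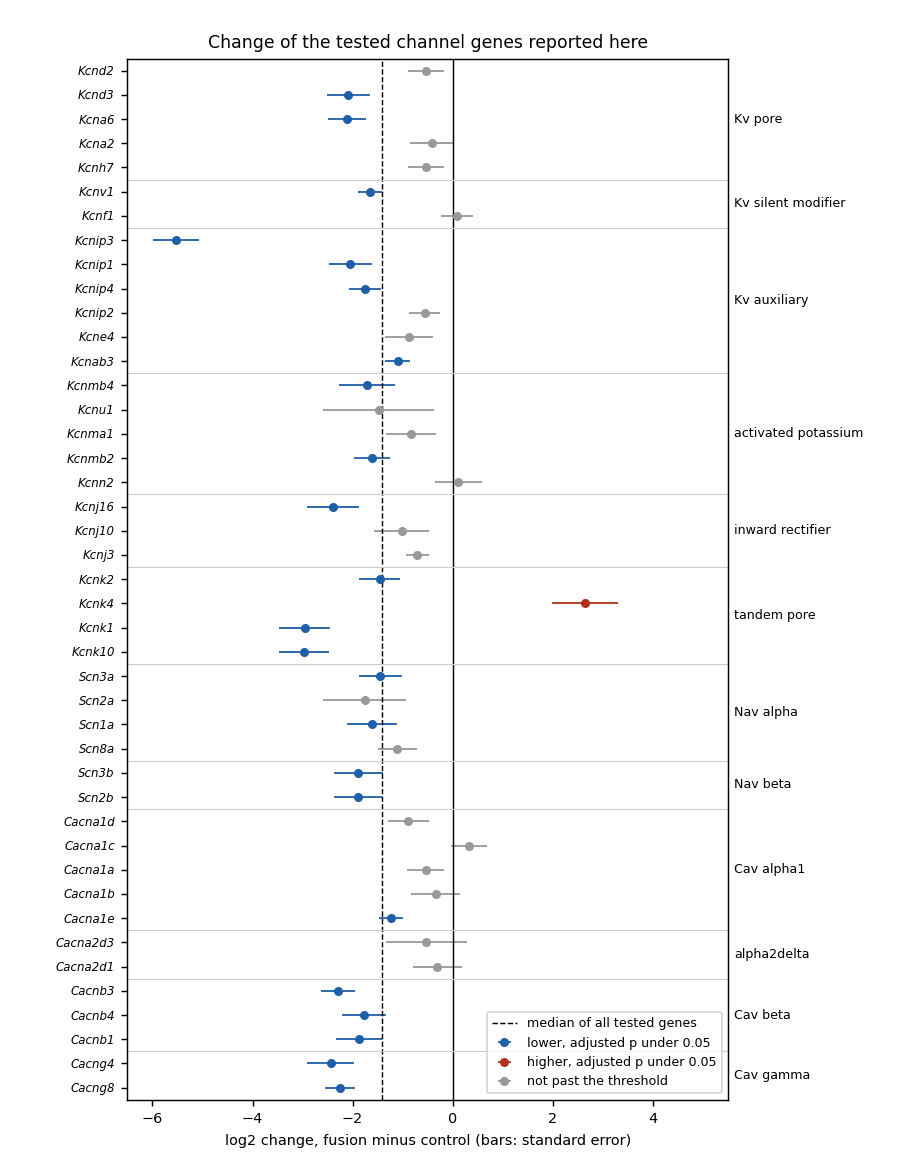
Log2 change between fusion and control (x axis, points) with its standard error (bars) for the same genes; colours mark genes lower, higher and not past the threshold, and the dashed line is the median of all tested genes, -1.41. Most points lie around the dashed line, with Kcnip3 at -5.53 and Kcnk4 at 2.64 at the ends.

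Among the pore-forming Kv genes, 7 of 29 were tested: 3 were lower and 4 did not pass, beside 51.3% lower over all tested genes. The median log2 change of the 7 genes was -0.67 and turned to 0.38 after rescaling. Kcnd2 encodes Kv4.2, the main pore of the A-type current, and had the highest mean level of the class (chr6:21215503-21729805, plus strand; positions are from GENCODE M21, GRCm38). It was at 29.7, 28.6, 21.5 and 18.4 TPM. Both fusion values lay below both controls by a small margin, and the log2 change of -0.53 ± 0.35 (SE) did not pass (limma adjusted p = 0.244). The change was 0.87 above the median change of all genes, and its sign turned when libraries were rescaled to a median ratio of 1 (1.17, adjusted p = 0.0816). Kcnd3, which encodes the related pore Kv4.3, was at 10.8, 9.53, 1.33 and 1.97 TPM. The groups did not overlap, with means of 10.2 ± 0.901 and 1.65 ± 0.450 TPM (SD, n = 2 each), and its log2 change of -2.08 ± 0.43 passed (limma adjusted p = 0.0123). Within each library the ratio of Kcnd3 to Kcnd2, which no scaling of the library can move, was 0.363 and 0.333 in controls and 0.0621 and 0.107 in fusion libraries. Kcnd2 made up 48.2% and 43.6% of the TPM of all pore-forming Kv genes in controls and 78.5% and 61.0% in fusion libraries.

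Kcna6, also called lower, encodes a delayed rectifier of the Kv1 family and was at 4.59, 6.59, 0.366 and 0.653 TPM. It passed the filter through the control libraries alone, so its fusion values had to be under 1 TPM and below both controls. Its log2 change was -2.12 (limma adjusted p = 0.00856). Kcna2 (1.93, 1.90, 0.527 and 2.15 TPM) and Kcnh7 (1.72, 1.19, 1.22 and 0.293 TPM) overlapped between groups. The electrically silent subunits, which form channels only with Kv2 pores, had 2 tested genes of 10. Kcnv1 was at 2.40 and 1.93 TPM in controls and listed at 0 in both fusion libraries (limma adjusted p = 0.00515). Like Kcna6, it was tested through the control libraries alone. Kcnf1 (0.573, 1.43, 1.15 and 0.977 TPM) did not pass (0.849).

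The Kv auxiliary class had 11 genes, of which 6 were tested: 4 were lower and 2 did not pass. Over all tested genes 51.3% were lower. Among the lower genes of the class, Kcnip4 and Kcnab3 passed the filter through the control libraries alone, so their direction was set by it. The class held the largest fall of any channel gene. Kcnip3 encodes KChIP3, a calcium-binding protein that binds the Kv4 pore and speeds its delivery to the membrane, and which is also known as DREAM, a DNA-binding repressor, and as calsenilin (chr2:127456498-127522094, minus strand). It was at 88.7 and 157 TPM in controls, the highest level of any channel gene there, and at 1.92 and 1.26 TPM in fusion libraries. The lowest control was far above the highest fusion library, the means were 123 ± 48.4 and 1.59 ± 0.464 TPM (SD, n = 2 each), and the mean was 77.1-fold lower in the fusion group. The log2 change of -5.53 ± 0.45 passed (limma adjusted p = 0.00367), lay 4.13 below the median change of all genes, and ranked 61 among the falls of all 12871 tested genes. It passed after rescaling (-4.03, adjusted p = 0.0112), after a correction for GC content and length (-3.80, 0.00432) and without the mitochondrially encoded genes (-5.18, 0.00458). It did not pass without control replicate 1 (adjusted p = 0.0537) or without control replicate 2 (0.0742).

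Of the other KChIP genes, Kcnip1 and Kcnip4 were lower and Kcnip2 did not pass. Kcnip1 encodes KChIP1 (chr11:33629339-33993152, minus strand) and was at 16.7, 16.3, 3.98 and 2.60 TPM. Its groups did not overlap (16.5 ± 0.289 and 3.29 ± 0.975 TPM; SD, n = 2 each), and the log2 change of -2.05 ± 0.43 passed (limma adjusted p = 0.0129) but fell to -0.50 after rescaling, short of the threshold. Kcnip4 was at 3.37, 2.48, 0.341 and 0 TPM (log2 change -1.75, limma adjusted p = 0.00832), and Kcnip2 was at 1.66, 2.23, 0.842 and 1.13 TPM (-0.56, 0.172). Kcnip2 passed as higher under the GC and length correction (1.46, adjusted p = 0.026), so its direction turned with that setting. In controls Kcnip3 exceeded Kcnd2, with ratios of 2.98 and 5.49. In fusion libraries the ratios were 0.0896 and 0.0687, and those of Kcnip1 to Kcnd2 went from 0.563 and 0.570 to 0.186 and 0.142. Kcnip3 made up 76.2% and 85.4% of the TPM of Kv auxiliary genes in controls and 20.2% and 21.1% in fusion libraries, where Kcnip1 took the largest share (41.9% and 43.4%). The pairs of genes in these ratios were chosen after their values were seen.

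**Figure D3:**
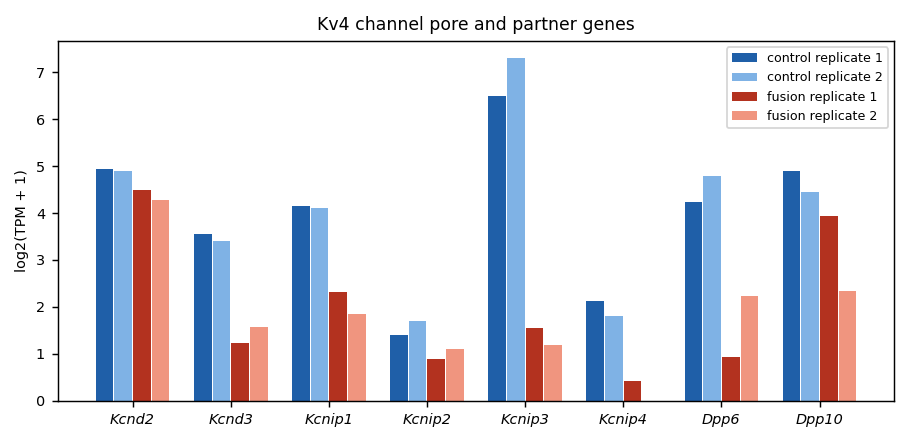
Level of Kv4 pore genes (Kcnd2, Kcnd3), KChIP genes (Kcnip1 to Kcnip4) and Kv4-binding transmembrane partners (Dpp6, Dpp10), as log2(TPM + 1) on the y axis, with 1 bar per library. Kcnd2 bars are of similar height in all 4 libraries (29.7, 28.6, 21.5 and 18.4 TPM), while Kcnip3 goes from the tallest control bars to 1.92 and 1.26 TPM.

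The transmembrane partners of Kv4 channels, Dpp6 and Dpp10, were taken from a list of 64 partner genes that are no channel genes by name. Dpp6 was at 17.8, 26.4, 0.910 and 3.68 TPM, so both fusion values lay below both controls, and its log2 change of -2.92 ± 0.59 passed (limma adjusted p = 0.0119). Dpp10 was at 28.7, 20.9, 14.3 and 4.06 TPM and did not pass (-1.54 ± 0.63, 0.0880). The remaining Kv auxiliary genes were low: Kcne4, of the family that slows or inhibits Kv pores, was at 2.22, 1.42, 1.32 and 0 TPM and did not pass, and Kcnab3, a cytoplasmic beta subunit of Kv1 channels, was lower at 1.11, 1.76, 0.0376 and 0.222 TPM (-1.10, 0.0174).

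Of the 12 genes of calcium-activated channels and their relatives, 5 were tested: 2 were lower and 3 did not pass. Over all tested genes 51.3% were lower. Kcnmb4 encodes beta4, the brain-enriched auxiliary subunit of the large-conductance (BK) channel (chr10:116417861-116473878, minus strand), and was at 57.8, 57.6, 9.77 and 28.4 TPM. The control libraries were nearly equal and the fusion libraries differed from each other, with means of 57.7 ± 0.102 and 19.1 ± 13.2 TPM (SD, n = 2 each). Its log2 change of -1.72 ± 0.56 passed narrowly (limma adjusted p = 0.0472), was -0.02 after rescaling (0.982) and turned to 0.23 when corrected for GC content and length. The spans of the antisense genes Kcnmb4os1 and Kcnmb4os2 overlap that of Kcnmb4, as 33 of the 45 tested channel genes overlap another gene model. Shared exons were not looked for, and no strand is stated, so it is open if reads were shared. The BK pore itself, Kcnma1, was low at 1.98, 2.44, 1.82 and 0.139 TPM. Kcnmb2, another BK subunit, was lower at 2.35, 3.43, 0.00754 and 0.569 TPM (-1.61, limma adjusted p = 0.0152). It was tested through the control libraries alone. Kcnu1, a relative of the BK pore best known from sperm, was at 7.74, 7.97, 0 and 9.15 TPM, so a single fusion library made its change of -1.48 ± 1.11 (0.299). Kcnn2, a small-conductance calcium-activated pore, was at 1.08, 0.289, 0.192 and 1.64 TPM.

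Of the 15 inward rectifier genes, 3 were tested, of which 1 was lower, beside 51.3% of all tested genes. Kcnj10 encodes Kir4.1, the main potassium conductance of glia, and Kcnj16 encodes Kir5.1, which forms pH-sensitive channels together with Kir4.1. Kcnj16 was at 22.8, 29.3, 2.52 and 6.51 TPM, with both fusion libraries below both controls (means of 26.1 ± 4.60 and 4.51 ± 2.82 TPM; SD, n = 2 each). Its log2 change of -2.39 ± 0.52 passed (limma adjusted p = 0.0146) and was -0.81 after rescaling, short of the threshold. Kcnj10 was at 7.13, 9.53, 2.09 and 5.73 TPM, and its change of -1.02 ± 0.55 did not pass (0.165) and turned to 0.44 after rescaling. The ratio of Kcnj16 to Kcnj10 was 3.21 and 3.08 in controls and 1.21 and 1.14 in fusion libraries, close within each group. Kcnj3, a G-protein-gated channel, was at 1.29, 1.43, 0.463 and 0.428 TPM and missed the threshold (-0.71, limma adjusted p = 0.0502). This gene passed the filter through the control libraries alone, so its direction and its separation between groups were set by the filter.

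The tandem pore class had 4 tested genes of 14, of which 3 were lower and 1 higher. Over all tested genes 51.3% were lower and 4.95% higher. The tandem pore class was the one that held genes called in both directions. Kcnk2 (TREK-1), Kcnk10 (TREK-2) and Kcnk4 (TRAAK) form a subfamily of leak channels opened by membrane stretch and fatty acids. Kcnk4 (chr19:6923966-6934515, minus strand) was at 3.29, 0.541, 19.6 and 11.5 TPM. Both fusion libraries lay above both controls, with means of 1.92 ± 1.95 and 15.5 ± 5.73 TPM (SD, n = 2 each), an 8.11-fold higher mean. The log2 change of 2.64 ± 0.65 passed (limma adjusted p = 0.0210), lay 4.05 above the median change of all genes and ranked 175 among the rises. It also passed after rescaling (3.87, 0.0188), with the GC and length correction (4.67, 0.00793) and without the mitochondrially encoded genes (3.23, 0.023). It did not pass without control replicate 1 (0.108), control replicate 2 (0.193) or fusion replicate 1 (0.0676), nor when the filter on low values was dropped or the pseudocount was 0.1. The span of Kcnk4 overlaps that of Catsperz on the same strand, a gene at 1.54, 0.796, 0 and 0 TPM. Shared exons were not looked for, and any reads shared between them could be split either way.

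The other subfamily members were lower. Kcnk10 was at 9.57, 17.6, 0.518 and 1.09 TPM, with no overlap between groups (-2.97 ± 0.50, limma adjusted p = 0.00722; after rescaling -1.73, 0.044). Kcnk2 was at 16.2, 15.2, 4.23 and 6.06 TPM (means of 15.7 ± 0.675 and 5.14 ± 1.29 TPM; SD, n = 2 each). Its log2 change of -1.46 ± 0.41 passed (0.0318), near the median of all genes, and turned to 0.12 after rescaling and to 0.31 when corrected for GC content and length. Kcnk1 (TWIK-1), a weakly conducting member of another subfamily, was at 13.5, 15.6, 0.425 and 1.81 TPM (-2.96 ± 0.51, 0.00783; after rescaling -1.70, 0.0596). The ratio of Kcnk4 to Kcnk10 was 0.344 and 0.0308 in controls and 37.8 and 10.5 in fusion libraries, and that of Kcnk4 to Kcnk2 was 0.203 and 0.0355 against 4.64 and 1.90. Kcnk4 made up 7.49% and 1.07% of the TPM of the class in controls and 76.4% and 56.1% in fusion libraries, as the plot of class shares shows.

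**Figure D4:**
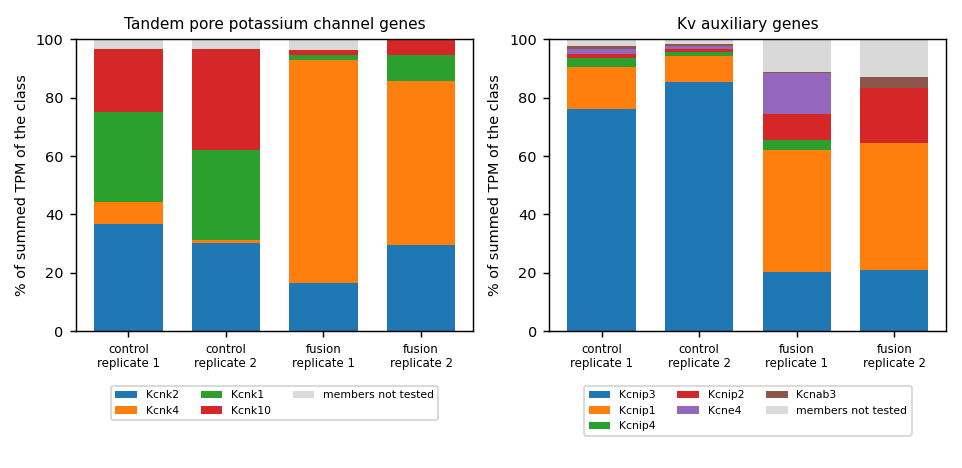
Share of the summed TPM of a class (y axis, percent) taken by each tested gene in each library, for tandem pore channel genes (left) and Kv auxiliary genes (right); grey is the genes not tested. Kcnk4 goes from 7.49% and 1.07% to 76.4% and 56.1% of its class, and Kcnip3 from 76.2% and 85.4% to 20.2% and 21.1%.

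The DNA just upstream of the start sites of these genes is shown because Kcnip3 and Kcnk4 stood farthest from the other channel genes, and Kcnd2, the pore that KChIP3 binds, did not pass the test. Each run is the 150 bases before a start site in RefSeq (GRCm38.p6), 5′ to 3′ on the gene's strand, and none overlaps an exon of GENCODE M21. Capitals mark the GC box, GGGCGG on either strand (CCGCCC on the other), which is the core of the site bound by Sp1-type factors.
Kcnip3, farthest upstream start, chr2:127522095-127522244, minus strand: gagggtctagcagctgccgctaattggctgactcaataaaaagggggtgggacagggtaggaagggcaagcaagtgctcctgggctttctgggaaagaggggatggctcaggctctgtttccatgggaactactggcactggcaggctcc
Kcnip3, middle start, chr2:127521393-127521542, minus strand: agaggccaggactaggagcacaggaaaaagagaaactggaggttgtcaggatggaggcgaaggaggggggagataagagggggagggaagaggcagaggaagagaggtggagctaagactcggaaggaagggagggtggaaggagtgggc
Kcnip3, farthest downstream start, chr2:127482500-127482649, minus strand: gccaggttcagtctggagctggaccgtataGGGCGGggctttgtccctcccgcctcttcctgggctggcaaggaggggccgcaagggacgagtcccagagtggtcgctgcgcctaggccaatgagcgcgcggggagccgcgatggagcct
Kcnd2, chr6:21215196-21215345, plus strand: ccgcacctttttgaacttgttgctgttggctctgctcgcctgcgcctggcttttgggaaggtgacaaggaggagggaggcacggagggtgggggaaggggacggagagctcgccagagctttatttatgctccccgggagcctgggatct
Kcnk4, chr19:6934516-6934665, minus strand: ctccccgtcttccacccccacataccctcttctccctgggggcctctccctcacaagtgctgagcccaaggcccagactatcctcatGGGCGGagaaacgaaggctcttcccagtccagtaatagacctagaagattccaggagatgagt
The GC box was found 1 time upstream of the farthest downstream Kcnip3 start and 1 time upstream of Kcnk4, and not in the other 3 windows. The 3 Kcnip3 windows held 1, 2 and 12 CG pairs in the order shown, against 7 for Kcnd2 and 3 for Kcnk4. Of 32851 start sites in the RefSeq table, 28.6% had the motif in such a window, and of the 56 start sites of the 35 tested channel genes found there, 17 had it (30.4%). A match is a description of the letters only, and gene-level TPM does not show which Kcnip3 start was used.

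Of the 10 sodium channel alpha genes, 4 were tested, and of the 4 beta genes, 2. All 6 tested sodium channel genes had both fusion libraries below both controls, 4 were called lower and 2 did not pass, beside 71.1% and 51.3% of all tested genes that were separated below and called lower. Their median log2 change was -1.69, and -0.42 after rescaling, when 0 of the 6 passed limma's threshold (0 at an unadjusted p under 0.05). Scn3a encodes Nav1.3, the pore of embryonic and newborn brain, and was at 9.62, 8.94, 3.33 and 2.28 TPM. Its log2 change of -1.45 ± 0.43 passed (limma adjusted p = 0.0362), lay at the median of all genes and turned to 0.03 after rescaling. Scn2a, the early axonal pore, was at 9.95, 7.12, 0.258 and 5.18 TPM. Its fusion libraries lay far apart, and it did not pass (-1.76 ± 0.83, 0.123). Scn1a (Nav1.1) was at 2.81, 7.43, 0.874 and 0.826 TPM and passed (-1.62, 0.0404). It was tested through the control libraries alone, so its separation in the count above was set by the filter. Scn8a (Nav1.6), the pore of mature nodes, was at 4.25, 3.98, 1.00 and 1.82 TPM and did not pass (-1.10, 0.061). The beta subunits, single-span proteins that also act in cell adhesion, were both lower: Scn3b was at 11.8, 15.5, 2.02 and 4.12 TPM (-1.88 ± 0.48, 0.0234) and Scn2b at 4.88, 4.28, 0.0192 and 1.23 TPM (-1.89 ± 0.48, 0.0231).

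Of the 26 calcium channel genes, 12 were tested: 6 were lower and 6 did not pass, beside 51.3% lower over all tested genes. The pores, called alpha1, had 5 tested genes with a median log2 change of -0.54, which turned to 0.48 after rescaling, and 1 of them was lower. Cacna1d encodes the L-type pore Cav1.3 and was at 2.78, 4.78, 1.48 and 1.57 TPM, with both fusion libraries below the controls but short of the threshold (-0.89, limma adjusted p = 0.117; 0.36 after rescaling). Cacna1c, the L-type pore Cav1.2, overlapped between groups at 1.63, 0.993, 1.41 and 2.39 TPM (0.32, 0.478) and passed as higher after rescaling (1.34, 0.0447). Cacna1e, the R-type pore, was lower at 1.10, 1.81, 0.0559 and 0 TPM (-1.24, 0.0109, and -0.72, 0.049 after rescaling). It was tested through the control libraries alone, so its direction was set by the filter. Cacna1a (P/Q-type; 1.44, 2.26, 1.42 and 0.562 TPM) and Cacna1b (N-type; 0.592, 2.37, 0.367 and 1.44 TPM) did not pass.

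The 3 tested Cav beta genes, cytoplasmic subunits that carry the pore to the membrane, were all lower, with a median log2 change of -1.87. Over all tested genes, 51.3% were lower and 71.1% had both fusion libraries below both controls. Cacnb3 was at 5.23, 5.92, 0.469 and 0.226 TPM (-2.29 ± 0.35, limma adjusted p = 0.00581). Cacnb4 was at 4.0, 5.47, 0.236 and 1.24 TPM (-1.77, 0.0222), and Cacnb1 at 1.52, 4.91, 0.108 and 0 TPM (-1.87, 0.0204). The values of all 3 genes were separated between groups. Cacnb3 and Cacnb1 passed the filter through the control libraries alone, so their separation was set by the filter. After rescaling, the changes of the 3 genes (-1.25, -0.74 and -1.17) fell short of the threshold. The alpha2delta genes, extracellular subunits that raise surface density, did not pass. Cacna2d3 was at 1.90, 2.77, 0 and 4.26 TPM and Cacna2d1 at 1.49, 2.68, 2.55 and 0.688 TPM, so each overlapped between groups and the 2 fusion libraries disagreed in opposite ways.

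Both tested Cav gamma genes were lower, beside 51.3% of all tested genes. Cacng4 encodes an AMPA receptor partner of oligodendrocyte precursors (chr11:107732357-107794557, minus strand) and was the highest calcium channel gene by name, at 36.5, 57.7, 5.68 and 10.2 TPM. The means were 47.1 ± 15.0 and 7.94 ± 3.20 TPM (SD, n = 2 each), and the log2 change of -2.44 ± 0.47 passed (limma adjusted p = 0.0102) but was -0.78 after rescaling, short of the threshold. Cacng8, of the same family, was at 3.48, 4.49, 0 and 0.0857 TPM and passed both as deposited (-2.25 ± 0.29, 0.00443) and after rescaling (-1.53, 0.0149). It was tested through the control libraries alone, so its lower fusion values were set by the filter.

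Rescaling the libraries so that the median gene ratio was 1 changed most calls. Of the 45 channel genes, 5 were then lower (11.1%, against 18.6% of all tested genes) and 2 higher (4.44%, against 14.3%). The genes lower both ways were Kcnip3, Kcnk10, Kcnv1, Cacna1e and Cacng8, and the genes higher were Kcnk4 and Cacna1c. Of the 5 lower genes, Kcnv1, Cacna1e and Cacng8 had been tested through the control libraries alone. The channel genes' median change was then -0.39, beside -0.15 for all genes. With the correction for GC content and length, Kcnip3 was the channel gene that passed as lower, and Kcnk4, Kcnip2 and Kcnn2 passed as higher. Leaving out either control library left Cacna1e, Cacnb1, Cacng8 and Kcnv1 as the 4 genes called lower; all 4 passed the filter through the control libraries alone, so they had to be lower in the fusion libraries and their calls say nothing about stability. Leaving out fusion replicate 1 or 2 gave 22 and 28 lower.

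**Figure D5:**
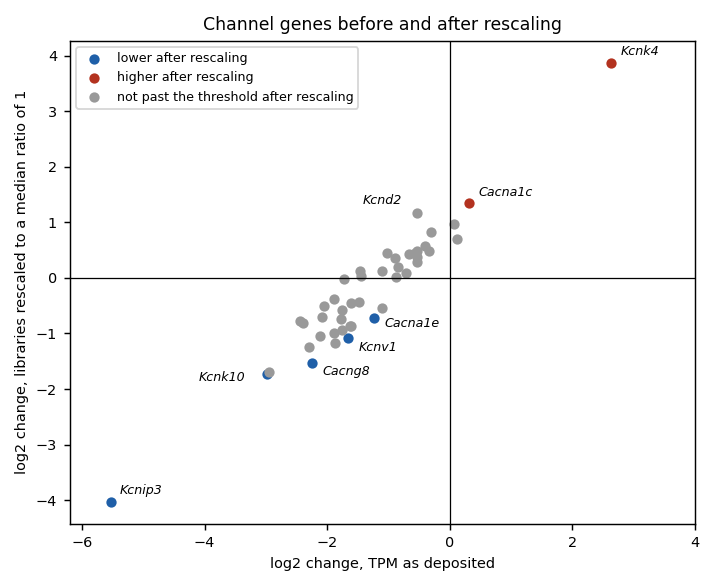
Log2 change of each tested channel gene from TPM as deposited (x axis) and after rescaling the libraries to a median ratio of 1 (y axis); blue and red points passed as lower and higher after rescaling. Kcnip3 (-5.53 and -4.03) and Kcnk4 (2.64 and 3.87) keep their distance from 0 on both axes, while Kcnd2 goes from -0.53 to 1.17.

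The fusion libraries differed from each other more than the control libraries did. The median difference between the 2 libraries of a group, in absolute log2 units, was 0.371 in controls and 0.496 in fusion libraries over the 45 channel genes, and 0.296 and 0.633 over all tested genes. A difference above 1 log2 unit was seen for 4 channel genes in controls and 13 in fusion libraries. Kcnv1 was at 0 in both fusion libraries, and 8 genes were at 0 in 1 of them (among them Cacna1e, Cacnb1, Cacng8, Kcnip4, Kcne4, Kcnu1 and Cacna2d3).

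Genes that work with these channels were counted from the list of 64 partners, of which 63 were in the table and 41 were tested: 18 were lower, 1 was higher and 22 did not pass, with a median log2 change of -1.33. Over all tested genes 51.3% were lower and 4.95% higher with a median of -1.41, so nothing particular to the partners is read from these counts. The sodium pump, which restores the gradients the channels spend, had 6 tested genes, of which 3 were lower. Atp1b2, the glial beta subunit, was at 58.0, 63.3, 8.22 and 3.19 TPM (-3.31), separated between groups. Among 10 tested genes of the node of Ranvier and sodium channel partners, 8 were lower as deposited, beside 51.3% of all tested genes, and 1 lower and 1 higher after rescaling. They include the adhesion protein Cntn1 at 208, 264, 75.5 and 95.8 TPM (-1.45), near the median of all genes. Fgf12, which binds the sodium channel tail, overlapped at 72.4, 61.9, 38.1 and 100.2 TPM.

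Dlg1, a scaffold that clusters Kv1 and Kir channels, was the partner called higher, at 12, 15.7, 51.5 and 37.9 TPM. Both fusion libraries lay above both controls (1.61 ± 0.39, limma adjusted p = 0.019). Lrrc55, an auxiliary protein of BK channels, was at 2.77 and 3.44 TPM in controls and at 0 in both fusion libraries. Like Kcnv1, it passed the filter through the control libraries alone, so its direction was set by the filter. The calmodulin genes, whose protein is the calcium sensor of many of these channels, did not pass: Calm2 was at 2866, 2039, 2455 and 3456 TPM and Calm3 at 321, 298, 79.6 and 188 TPM. Rest, the repressor of neuronal genes including many channels, overlapped at 2.51, 2.10, 0.936 and 6.82 TPM.

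Several of these channel genes are also used by cells other than oligodendrocyte precursors, so marker levels are given beside them. All 10 precursor markers were above 0 in every library and summed to 1456, 1893, 480 and 605 TPM, with 7 of 10 lower. The shares to set beside this and the following marker counts are 51.3% lower and 4.95% higher over all tested genes. Of 16 neuron markers, 11 were tested and 7 were lower (sums of 361, 347, 67.7 and 78.6 TPM). Snap25 (135, 132, 24.7 and 8.79 TPM) and Elavl4 (86.9, 74.9, 3.21 and 12.3 TPM) were the most abundant, Stmn2 and Gad1 overlapped between groups, Gad2 lay above the controls in both fusion libraries without passing, and Slc17a6, Slc17a7, Slc32a1 and Rbfox3 were under 1 TPM in every library. Maturing oligodendrocyte markers summed to 2094, 2936, 178 and 159 TPM, with 6 of 6 tested lower, and astrocyte markers to 432, 513, 105 and 149 TPM, with 5 of 9 lower. Markers of microglia and macrophages summed to 109, 27.4, 492 and 719 TPM, with 4 of 10 tested higher, 1 lower and 5 not past. Fcer1g (27.4, 1.17, 327 and 480 TPM) made up most of that sum in the fusion libraries. P2ry12 was the gene called lower, but it passed the filter through the control libraries alone. Markers of fibroblasts summed to 62.7, 172, 536 and 1069 TPM, again with 4 of 10 higher, 1 lower and 5 not past, and Mgp (0, 1.34, 364 and 717 TPM) made up most of the fusion sums. Both sums were higher in the fusion libraries, as Kcnk4 was, but 5 of the 10 tested genes of each list did not pass. The lower fibroblast gene, Pdgfrl, the neuron marker Syt1 and the maturing oligodendrocyte marker Mog also passed the filter through the control libraries alone. Foxc1 of the fibroblast list, Gad2 and the endothelial gene Cdh5 passed it through the fusion libraries alone. The direction of all these genes was set by the filter. Pericyte and smooth muscle markers summed to 105, 287, 23.5 and 146 TPM (1 of 4 tested lower), and endothelial markers to 1.24, 1.43, 3.24 and 5.88 TPM (1 tested, higher). The lower pericyte gene was Cspg4 (45.7, 68.4, 7.50 and 9.11 TPM), which is also on the precursor list. Cspg4 and Vtn (54.4, 214, 14.4 and 54.8 TPM) made up most of the control sums of the pericyte list. Vtn, Rgs5 and Higd1b overlapped between groups and did not pass. Rgs5 and Higd1b were highest in fusion replicate 2, so a fall of pericyte markers as a set is not read from the sums. The part of all these cell types, and of the mitochondrial share, in the channel gene values was not tested.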

How the data were processed

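RNA was measured in 4 libraries of sorted forebrain cells, amplified as full-length cDNA and sequenced in pairs, per the labels' protocols. PCR copies are not marked and a strand is not stated. The authors deposited 1 table of TPM per gene. The submitters' processing notes name Salmon 1.8.0, Trimmomatic 0.39, mm10 and GRCm38. For annotation release and index, nothing was given in the sources used here. Depth cannot be read from TPM, so the precision of single values is unknown, and genes that take a larger share of a library lower all others.

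Sample titles give each library's genotype and so its group. The row of highest mean was used where a symbol repeats. Values were log2(TPM + 1), so changes of low genes are understated. The 12871 genes that reached 1 TPM in 2 or more libraries were fitted in R 4.3.3 by limma 3.58.1 (lmFit and trended eBayes, 2-sided; 2 residual and 3.25 prior degrees of freedom), with Benjamini-Hochberg adjustment over all of them and a threshold of 0.05. A permutation test of 2 against 2 libraries cannot go below 0.333. The fit was tested on simulated data.

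Alternatives were pseudocounts of 0.1 and 5, no filter, a mean of at least 5 TPM, libraries rescaled to a median ratio of 1 (over 10965 genes), values without mitochondrially encoded genes, a loess correction for GC content and length (span 0.3, 12862 genes, GENCODE M21, GRCm38), no trend, a replicate block and each library left out. The members, partner and marker lists and alternatives were chosen with earlier results of these data known. Named genes were, in each of 12 classes, the 2 tested members of highest mean, every member called higher, and the 8 largest falls among called members with a mean of at least 5 TPM and separated groups. Some genes that these rules take are not reported here. Other tested genes are named to complete their class. Partners named were the 5 of highest mean and the 5 largest called changes; Dpp10, Lrrc55 and Rest were chosen after their values were seen. Start sites came from RefSeq. Protein sequences were not used here.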

Additional observations from a re-analysis of the deposited data

How the results depend on the processing

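With 2 libraries a group and unknown depth, most single calls of channel genes were not kept when a control library was left out. The spread is then estimated from the fusion libraries, which differed more from each other. Without control replicate 1 or 2 the log2 change of Kcnip3 was -5.94 or -5.12, beside -5.53, and that of Kcnk4 was 3.38 or 1.90, beside 2.64. With all libraries and the settings described above, 637 of all genes were higher and 6606 lower, and of the partners 1 and 18. Counts of channel genes, all genes and partners stayed within 1.5 times of these, unless given here. With a pseudocount of 0.1, limma called 0 channel genes higher (1 at an unadjusted p under 0.05). With no filter the counts were 0 higher (2 unadjusted) and 15 lower for channel genes, and 353 higher over all genes. With a mean of at least 5 TPM they were 11 lower of 16 channel genes tested, 10 lower partners and 405 higher genes. Rescaling gave 2 higher and 5 lower channel genes, 4 higher and 5 lower partners, and 1846 higher and 2396 lower genes. Without mitochondrially encoded genes 978 genes and 2 partners were higher. The GC and length correction gave 3 higher and 1 lower channel genes, 3 higher and 2 lower partners, and 1817 higher and 2136 lower genes. With 1 library left out, where the lone library is assumed to vary like the other group, channel genes ranged from 0 to 1 higher and 4 to 28 lower, partners from 0 to 1 higher and 4 to 27 lower, and all genes from 14 to 1084 higher and 1025 to 7987 lower; the fewest lower calls came without a control library.

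Among genes that the naming rule took, the sign turned after rescaling for Cacna1d (0.36), Cacna2d1 (0.82), Cacna2d3 (0.29), Kcnd2 (1.17), Kcnj10 (0.44), Kcnk2 (0.12) and Scn3a (0.031). It also turned for other tested genes that were not called, among them Cacna1a (0.49), Cacna1b (0.48), Kcnip2 (0.45), Kcne4 (0.020), Kcna2 (0.57), Kcnh7 (0.38), Scn8a (0.12), Kcnj3 (0.079) and Kcnma1 (0.19). Among the genes of the rule it turned without mitochondrially encoded genes for Cacna2d1 (0.079) and Kcnd2 (0.016), and with the GC and length correction for Cacna2d1 (0.67), Cacna2d3 (0.82), Kcnd2 (0.28), Kcnk2 (0.31) and Kcnmb4 (0.23). With 1 library left out it turned for Kcnf1 (range -0.24 to 0.39, lowest without control replicate 1), Cacna2d3 (-1.72 to 0.67) and Kcnu1 (-3.15 to 0.20), both highest without fusion replicate 1, and Cacna2d1 (-0.84 to 0.23, highest without fusion replicate 2). The cause was not tested. Of 328 values of the 26 named genes under these settings, 233 kept direction and side of the threshold. The replicate number as a block gave 1 higher and 24 lower channel genes, 21 lower partners and 642 higher and 6978 lower genes. Deviations of same-numbered libraries correlated at -0.04 over 12871 genes. This value cannot decide if same-numbered libraries share more than a number.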

Other observations

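Channel genes that were not tested included some that appeared in 1 fusion library. Cacng3, an AMPA receptor partner of cortical neurons, was at 0.0397, 0, 0 and 3.80 TPM, and Kcna4, a Kv1 pore with an A-type current, was at 0.141, 0.513, 0 and 1.08 TPM. Cacna1h, a T-type calcium channel pore, was at 0.705, 0.357, 0.0124 and 1.59 TPM. Scn2a, Cacna2d3 and Kcnu1 were also higher in fusion replicate 2 than in fusion replicate 1. These values come from a single library and were chosen after they were seen.

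Kcnj8, the pore of the ATP-sensitive potassium channel of pericytes, was at 0.554, 0.140, 0 and 2.42 TPM. Its partner subunit Abcc9 was at 0.164, 0.489, 0.914 and 3.43 TPM. Both were highest in fusion replicate 2.

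Across the 45 tested channel genes, the change ran against the mean control level, with a Spearman rho of -0.73, beside -0.468 over 12862 tested genes. The change holds the control level in it, and genes are not independent, so this is a description only. Against GC content the rho was -0.069 and against transcript length 0.162 over the channel genes.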
